A study of Mus musculus with 2 samples.

Results

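The pancreatic acinar cell genes Gp2, Zg16, Sycn, Dmbt1, Klk1 and Rnase1, which encode proteins of the zymogen granule other than the main digestive enzymes, were compared between the groups of the series. All 12 probe sets whose platform gene symbol was one of these names were taken, out of 45101 probe sets on the array, and none of the 12 carried several gene symbols. The members are thus 6 of the 18193 genes with a probe set of their own. RNA came from the pancreas of male C57BL/6J offspring at 10 weeks of age. Their dams had received control diet in the control group and a diet deficient in methionine in the methionine-deficient group, in both cases while pregnant. All offspring ate control diet from weaning at 3 weeks and had no treatment of their own after birth. Each group was a single pool of RNA read on a single Affymetrix 3' expression array, here called the control array and the MD array. Every value is therefore n = 1 per group, no spread between mice or arrays could be measured, and no test was possible. How many mice entered each pool is not given in the sources used here.

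Acinar cells pack their secretory proteins into zymogen granules and release them into the ducts when a meal triggers exocytosis. Beside digestive enzymes, the granules hold proteins that line the inner face of their membrane, such as GP2, syncollin, the lectin ZG16 and the mucin-like product of Dmbt1, and further secreted proteins such as tissue kallikrein and pancreatic ribonuclease. Klk1 and Rnase1 encode enzymes themselves, so the 6 genes are not all non-enzymes. The comparison asks whether transcripts of these granule proteins differ in adult pancreas after a maternal diet low in methionine.

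All 6 genes gave close intensities in the 2 pools. In the brightest probe set of each gene, the log2 difference (methionine-deficient minus control) lay between -0.105 for Gp2 and 0.037 for Dmbt1, with 4 genes higher, 2 lower and a median of 0.024. As a yardstick, the spread of a single probe set was taken from pairs that read the same gene on these arrays, which covers probe noise only. It was 0.18 on the log2 scale in the brightest of 5 level bins, which runs from an intensity of 1477 to the top. In the members' own range, from 100000 up, it was 0.025, from 16 pairs of which 4 were members' own. The differences of Gp2 (-0.105) and Rnase1 (-0.081) exceeded this narrower spread and lay under 0.18, while those of Dmbt1 (0.037), Zg16 (0.033), Klk1 (0.025) and Sycn (0.024) were near it. None of the 6 genes differed by 2-fold, against 6.68% of the 11848 genes past a level filter (an intensity of 150, the median of the probe sets' mean levels over both arrays, array controls left out). None differed by 1.5-fold, against 19.4% of those genes. Differences were rarer among bright genes in general. Of 2864 genes in the brightest of 5 level bins past the filter, 0.419% differed by 2-fold and 2.41% by 1.5-fold, so a count of 0 among 6 members lies near this background and is not a result about the members. In RNA of a whole organ, fewer cells of a type and less RNA per cell cannot be told apart.

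**Figure D1:**
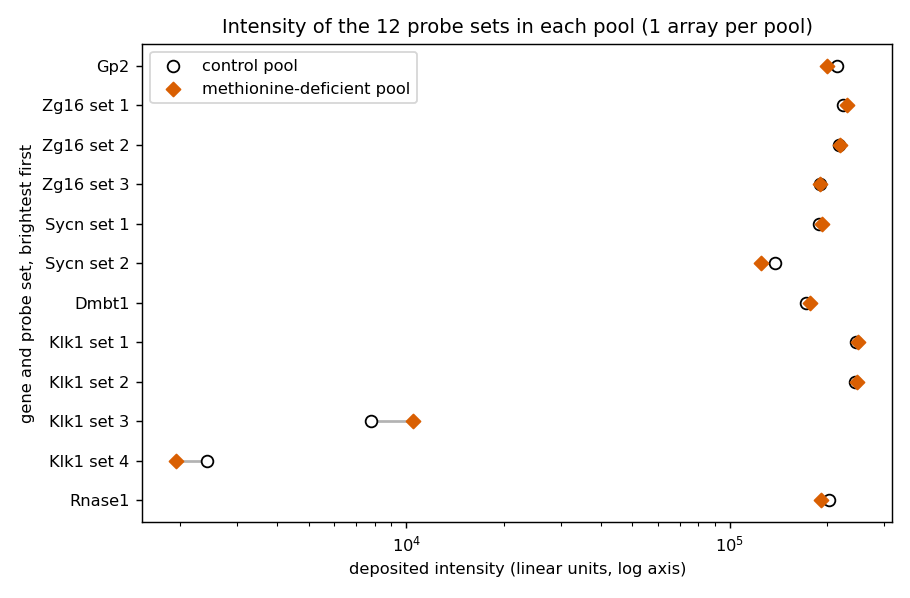
Deposited intensity (log axis) of each of the 12 probe sets in the control pool (open circles) and in the methionine-deficient pool (orange diamonds), 1 array each. In 10 probe sets both symbols lie between 124892 and 249554 and nearly coincide, while Klk1 sets 3 and 4 lie far to the left and differ in opposite directions.

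Gp2, a glycoprotein anchored by lipid to the granule membrane and the most abundant protein there, read 213990 on the control array and 199016 on the MD array. This was 1.08-fold lower (log2 difference -0.105), the largest difference among the 6 genes by their brightest probe sets. Gp2 is read by a single probe set, so no second reading was at hand. In the RefSeq gene order it lies next to Umod, which encodes a related protein of the kidney tubule.

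Zg16, a lectin of the granule that binds sulphated sugar chains and is thought to help condense the granule content, was read by 3 probe sets. The brightest had 224394 on the control array and 229521 on the MD array (log2 difference 0.033). The second had 216782 and 219692 (log2 difference 0.019), and the third had 189507 and 190156 (log2 difference 0.0049). All 3 readings were slightly higher in the methionine-deficient pool, and they lay within 0.028 of each other on the log2 scale, the closest set of readings among the members with several probe sets.

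Sycn encodes syncollin, a small protein held on the luminal side of the granule membrane that takes part in efficient exocytosis. Its brightest probe set had 188994 on the control array and 192162 on the MD array (log2 difference 0.024). Its other probe set had 137461 and 124892 (log2 difference -0.138). The 2 readings went in opposite directions and were 0.162 apart, and their mean was -0.057, so no direction can be read for Sycn. Dmbt1, a large scavenger receptor cysteine-rich glycoprotein made by acinar and other epithelial cells, had 172219 and 176645 in its single probe set (log2 difference 0.037), slightly higher on the MD array.

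Rnase1, the ribonuclease that the pancreas secretes to digest RNA in food, had 202792 on the control array and 191753 on the MD array. This was 1.06-fold lower (log2 difference -0.081) in its only probe set. With Gp2 it made up the 2 genes whose brightest probe set was lower in the methionine-deficient pool.

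Klk1 encodes tissue kallikrein, a serine protease that frees kinins from kininogen, and its 4 probe sets gave unlike pictures. The brightest had 245324 on the control array and 249554 on the MD array (log2 difference 0.025). The second had 244236 and 246617 (log2 difference 0.014). These 2 were among the 5 brightest probe sets in each array and nearly equal between pools. The third had 7774 and 10468, which was 1.35-fold higher in the methionine-deficient pool (log2 difference 0.43, probe-set spread 0.18). The fourth had 2428 and 1948, which was 1.25-fold lower (log2 difference -0.32, probe-set spread 0.18). The brightest reading exceeded the dimmest 101-fold on the control array and 128-fold on the MD array, although all are annotated to Klk1. The 2 dim readings exceeded the probe-set spread of 0.18, in opposite directions, and both carry the platform's mark for probes that can bind several transcripts. The second probe set, bright and nearly equal between pools, carries the same mark. The mean log2 difference over the 4 was 0.037.

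**Figure D2:**
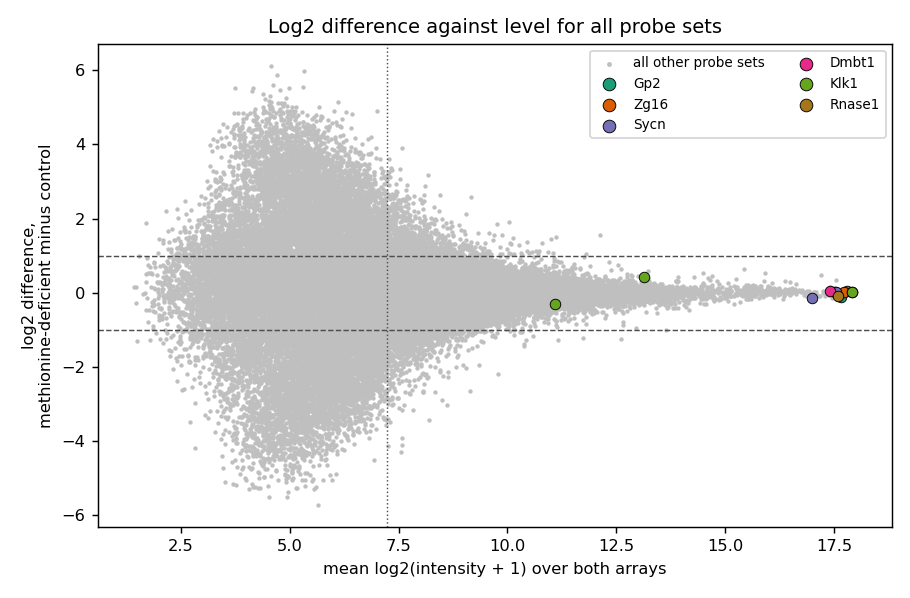
Log2 difference (methionine-deficient minus control) of every probe set that is not an array control against its mean log2(intensity + 1) over both arrays. Grey points are all other probe sets, coloured points the members, dashed lines mark 2-fold and the dotted line the level filter. The grey cloud narrows to the right, where 10 of the 12 member probe sets lie near 0, and the 2 dim Klk1 probe sets lie at 0.43 and -0.32.

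Where these readings lie on the arrays' scale bears on what they can show. Except for the 2 dim Klk1 probe sets, the 10 others had intensities from 137461 to 245324 on the control array and from 124892 to 249554 on the MD array, all within the brightest 67 probe sets of either array. The brightest probe set on the arrays reached 263446 and 266191. Intensity depends on how well a probe binds as well as on the amount of transcript, so no order of abundance between genes is read from it. A series of bacterial and phage transcripts are added to each hybridisation in rising amounts as controls. Their median intensities in the control pool were 11052 for bioB, 33848 for bioC, 86987 for bioD and 202651 for cre, and on the MD array 10582, 32692, 85822 and 203252. The 10 bright readings thus lie mostly around cre, the most abundant of these controls. The 4 cre probe sets differed between the arrays by -0.11 to 0.05 on the log2 scale, close to the range of the 10 bright member probe sets (-0.138 to 0.037). A narrowing of differences near the top of the range was not tested.

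**Figure D3:**
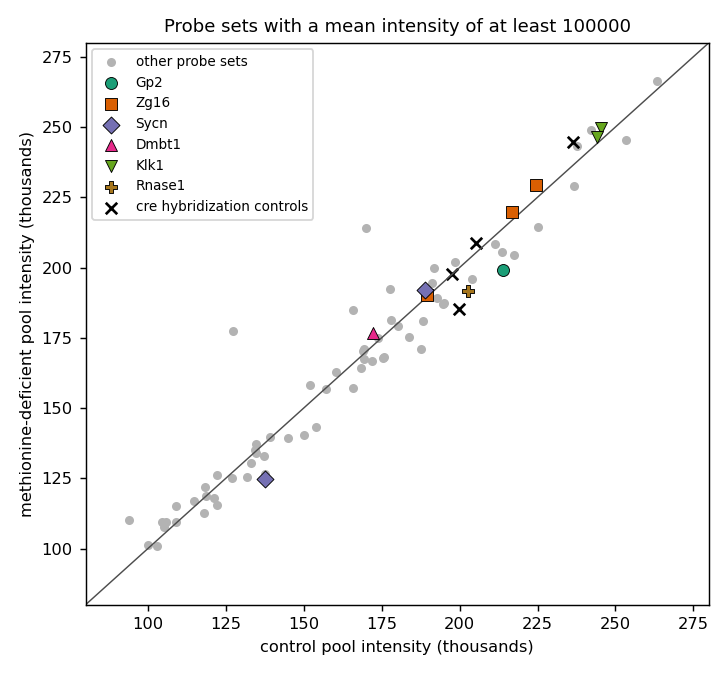
Intensity (in units of 1000) in the methionine-deficient pool against that in the control pool for the 74 probe sets with a mean intensity of at least 100000, with the diagonal of equal intensity. Coloured symbols are 10 member probe sets, grey points 64 others and crosses the 4 cre hybridisation controls. The members lie along the diagonal among the others, with Gp2, Rnase1 and the second Sycn probe set below it.

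Among the 64 other probe sets with a mean intensity of at least 100000, the log2 differences had a median of -0.0073, a robust SD of 0.066 and a range from -0.135 to 0.48, with 29 higher and 35 lower. The 10 bright member probe sets had a median of 0.017, with 7 higher and 3 lower. The central 90% of the other probe sets ran from -0.0945 to 0.15. Gp2 (-0.105) and the second Sycn probe set (-0.138) lay below this interval and the other 8 inside it. By comparison the robust SD was 0.12 over the 564 probe sets between 10000 and 100000 and 0.23 over the 5846 between 1000 and 10000, where the 2 dim Klk1 probe sets lie. There the central 90% ran from -0.42 to 0.43.

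By intensities in both pools together, the gene nearest to Klk1 was the trypsinogen gene Prss2, at a distance of 0.019 on the log2 scale over the 2 arrays, followed by 2210010C04Rik at 0.052. Gp2 lay nearest to Rnase1 (0.094) and the lipase-related Pnliprp2 (0.111), and Rnase1 nearest to the phospholipase gene Pla2g1b (0.065) and Pnliprp2 (0.082). Sycn lay nearest to Pla2g1b (0.057) and the elastase gene Cela3b (0.061). Zg16 lay nearest to the colipase gene Clps (0.076) and to Reg1 (0.098). The genes nearest to Dmbt1 were Tpt1 (0.019) and the metallothionein gene Mt1 (0.051). With 2 arrays such nearness describes the intensities and nothing else.

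Promoter sequence was at hand for 4 of the 6 genes, and the 100 bases before the start are shown because these genes share bright readings in a tissue made mostly of acinar cells. Acinar secretory genes are bound by PTF1, a complex containing PTF1A and RBPJL, at sites made of an E-box (CANNTG) and a TC-box (TTTCCC). The sequences are from RefSeq (GRCm38.p6), 5′ to 3′ on the strand of the gene, with matches to CANNTG and TATAAA in capitals. They lie at chr7:119459273-119459372 (minus strand) for Gp2, chr7:44225260-44225359 (plus strand) for Klk1, chr14:51146768-51146867 (minus strand) for Rnase1 and chr7:28540785-28540884 (plus strand) for Sycn.
Gp2: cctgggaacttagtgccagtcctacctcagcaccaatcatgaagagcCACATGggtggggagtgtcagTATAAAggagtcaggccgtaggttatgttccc
Klk1: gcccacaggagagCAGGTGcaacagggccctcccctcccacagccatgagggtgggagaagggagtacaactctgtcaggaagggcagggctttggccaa
Rnase1: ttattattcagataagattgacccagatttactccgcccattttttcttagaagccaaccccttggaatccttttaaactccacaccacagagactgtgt
Sycn: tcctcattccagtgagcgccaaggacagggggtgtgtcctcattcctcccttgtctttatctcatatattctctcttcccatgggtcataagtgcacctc

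Over the 250 bases before the start, searched on both strands, Gp2 and Klk1 each held 2 matches to CANNTG, and Rnase1 and Sycn held none. CANNTG occurred in 66.2% of all 32851 promoters of that length, and its form CACCTG, which matches the same bases, in 17.2% of them and in Klk1 alone among the 4. TTTCCC occurred in none of the 4, against 21.9% of all promoters. TATAAA occurred in Gp2, at position -32 from the start, against 12.4% of all promoters. Of the 18 digestive enzyme and cofactor genes with a sequence, 15 held CANNTG, 11 CACCTG, 7 TTTCCC and 8 TATAAA. A match is a description of letters in this window, and these arrays measured no binding.

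The digestive enzymes that share the granules had small differences too. Of 22 such genes and cofactors listed, 17 had a probe set of their own and all passed the filter, with 9 higher, 8 lower, none at 2-fold and a median log2 difference of 0.011. The trypsinogen gene Prss3 had 127298 on the control array and 177568 on the MD array (log2 difference 0.48, spread 0.18 in its bin), well past the spread, in a single probe set. Trypsinogen genes have near-identical copies, and whether this probe set reads them was not tested. Among the others the largest differences were those of the chymotrypsin-like gene Ctrl (-0.123) and the elastase genes Cela2a (-0.078) and Cela3b (0.06). The other probe sets of Cela3b were all lower (-0.0065, -0.096 and -0.022). Over all 11848 genes the median was 0.000, with 5924 higher and 5924 lower.

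**Figure D4:**
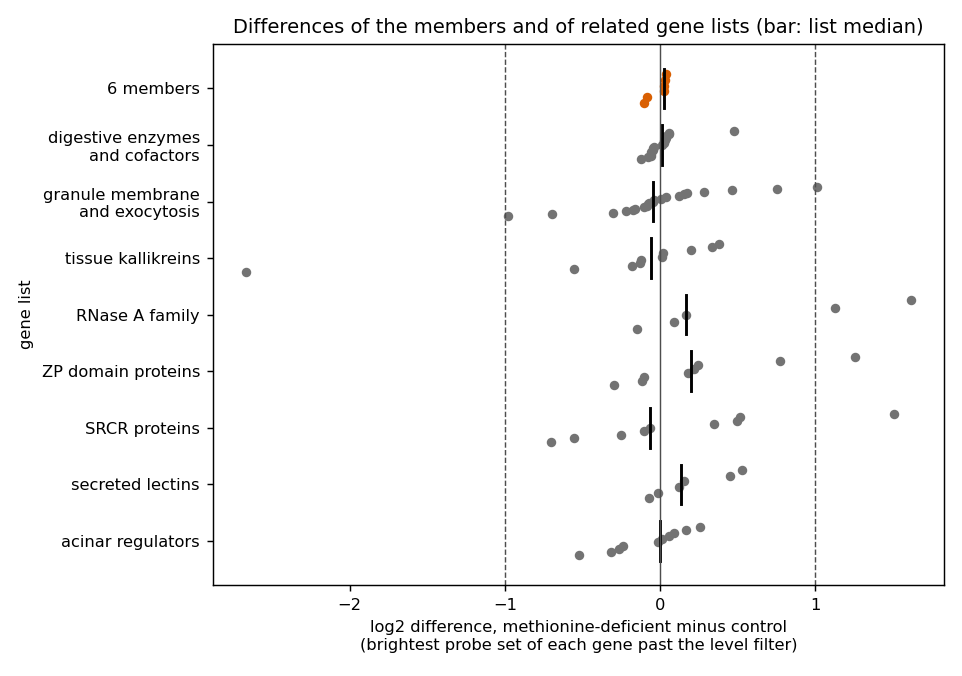
Log2 difference (methionine-deficient minus control) of the brightest probe set of each gene past the level filter, for the 6 members (orange) and 8 lists of related genes (grey); black bars are list medians and dashed lines mark 2-fold. ZP stands for zona pellucida and SRCR for scavenger receptor cysteine-rich. The members span -0.105 to 0.037, while the granule membrane and exocytosis genes, most of them far dimmer, span -0.98 to 1.01.

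Genes of the granule membrane and of exocytosis were more varied. Most of them read far dimmer than the members, at levels where differences were wider over all probe sets. All 21 measured genes of this list passed the filter, with 9 higher, 12 lower and a median log2 difference of -0.045. Rab27b, a small GTPase of zymogen granules, had 1637 on the control array and 2764 on the MD array (log2 difference 0.755, probe-set spread 0.18), but its 3 other probe sets were all lower. Stxbp3, a partner of syntaxins in membrane fusion, had 1593 and 808 (log2 difference -0.98, probe-set spread 0.31), with its other probe set also lower. Stx2, a syntaxin, had 335 and 206 (log2 difference -0.695, probe-set spread 0.60). Syt3, a calcium-binding synaptotagmin, had 168 and 339 (log2 difference 1.01, probe-set spread 0.60) and was the sole gene of the list past 2-fold. Cuzd1, a granule membrane protein with a zona pellucida domain whose gene lies near Dmbt1, was picked out with its values known. It had 153814 and 143338 (log2 difference -0.102), in the range of the 10 bright member probe sets. It was dimmer than the brightest probe set of each member. The next brightest of the list, likewise picked out, differed little too. Tmed6 had 93720 and 89283 (log2 difference -0.07), and Tmed11 had 32993 and 32147 (log2 difference -0.0375).

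Klk1 belongs to a cluster of nearly identical kallikrein genes, and Klk1b3, Klk1b4 and Klk1b5 precede it in gene order. Of 23 other kallikrein genes listed, 17 had a probe set of their own and 10 passed the filter, with 5 higher, 5 lower and a median log2 difference of -0.057. The median turned to 0.111 with a filter at the 75th percentile (5 higher, 1 lower) and to 0.201 without a filter (11 higher, 6 lower), so the list has no settled direction. Klk1b21 had 816 on the control array and 127 on the MD array, which was 6.42-fold lower (log2 difference -2.67, probe-set spread 0.60) in a single probe set. Its dimmer value lies below the level filter. Klk6 had 3724 and 4839 (log2 difference 0.38), Klk8 had 474 and 599 (log2 difference 0.34) and Klk1b16 had 338 and 230 (log2 difference -0.55). A probe set shared by Klk1b9 and Klk1b22, a pair named once its values were known, had 169357 and 167301 (log2 difference -0.018). The other shared kallikrein probe set, of Klk1b26 and Egfbp2, had 95.4 and 317 (log2 difference 1.72), with the control value below the filter. Bright kallikrein readings other than Klk1 can include Klk1 transcripts and the reverse, which was not tested.

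Of the ribonuclease A family and its inhibitor, 9 of 14 listed genes were measured and 5 passed the filter, with 4 higher, 1 lower and a median log2 difference of 0.17. Rnase4 had 15710 on the control array and 17692 on the MD array (log2 difference 0.17, probe-set spread 0.18). Rnh1, the inhibitor that binds ribonucleases in the cytosol, had 12442 and 11254 (log2 difference -0.145, probe-set spread 0.18). Ang4 (107 and 332, log2 difference 1.62) and Rnase10 (132 and 290, log2 difference 1.13) were past 2-fold from control intensities below the filter, with a probe-set spread of 0.77. Both passed only through the MD array, so the filter partly set their direction and with it the list's count and median. With a filter at the 75th percentile the median was 0.088 (2 higher, 1 lower). The other probe set of Ang4, below the filter, was lower (log2 difference -0.31). With signals scaled to the poly-A controls, the median of this list turned to -0.047.

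Regulators of acinar identity had 5 genes higher and 5 lower of 10 past the filter, with a median log2 difference of 0.0007. Ptf1a had 15390 on the control array and 12350 on the MD array (log2 difference -0.32, probe-set spread 0.18). Foxa3 had 2508 and 1746 (log2 difference -0.52, probe-set spread 0.18). Gata6 had 1072 and 894 (log2 difference -0.26, probe-set spread 0.31). Rbpj, the ubiquitous relative of Rbpjl, had 867 and 1040 (log2 difference 0.26, probe-set spread 0.31), and its other probe sets gave 0.77 and -0.64. The members' differences were not tested against these.

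Markers of other cells were read because Gp2 also marks M cells of the gut, Zg16 goblet cells, Klk1 salivary gland and Dmbt1 duct epithelia. Acinar markers were present, with 7 of 7 measured genes past the filter (3 higher, 4 lower). Their summed intensities were 776314 on the control array and 768896 on the MD array. All of them are also in the lists of digestive enzymes or acinar regulators above, so they are not a separate reading. Of 6 measured duct markers 5 passed, with 4 higher, a median log2 difference of 0.625 and sums of 10359 and 10817, of which Muc1 made up most (8791 and 8461). Onecut1 was 2.72-fold higher in its brightest probe set and lower in its other (log2 difference -0.38). Krt7 was 1.67-fold and Sox9 1.54-fold higher, all from control intensities between 217 and 275. The other probe sets of Sox9 gave log2 differences of 0.23 and, below the filter, -3.75. Cftr, below the filter, was 2.79-fold lower (129 and 46), and its dimmer probe set was higher (log2 difference 2.09). Of 9 measured goblet cell and enterocyte markers 3 passed, all 3 higher, with sums of 701 and 951. Of these, Vil1 (132 and 261) passed only through the MD array. Below the filter, Fcgbp, Spink4 and Cdx2 were lower, and Clca1, Fabp2 and Cdx1 were higher. Of 5 M cell markers 4 passed (1 higher, sums 5705 and 5530), and Anxa5 made up most of both sums (4568 and 4537). Of 6 salivary markers 1 passed (306 and 342). Islet markers passed in 5 of 5 cases (2 higher, sums 171654 and 179538). Adipocyte markers passed in 4 of 5 cases (1 higher, sums 16573 and 14308). B and plasma cell markers passed in 7 of 7 cases (1 higher), with sums of 13171 and 6691. The part of these cells in the members' values was not tested.

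Total signal had been equalised between the arrays, and the 3' over 5' control ratio, which reflects RNA quality, was 1.46 (control) and 1.76 (MD) for Actb and 0.973 and 1.11 for Gapdh. The direction of the members' small differences depended on scaling. With arrays centred on their medians all 6 members were lower (-0.157 to -0.015). Scaled to poly-A controls, bacterial transcripts added to RNA before labelling that read higher in the methionine-deficient pool in 23 of 24 probe sets, all 6 were lower (-0.32 to -0.18), and the median of all genes moved to -0.218. Both scalings shift all genes alike, so they leave the members' distance from the median of all genes as it was.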

How the data were processed

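The deposited values are linear intensities per probe set. For the authors' program and scaling, the sources used here give nothing. Without the outer 2% of values on either side, both arrays had a mean of 500.003, so a change in total RNA would not show. A 3' IVT kit gave the biotin-labelled cRNA, per the labels' protocols. The number of arrays limits the precision. Differences were computed as log2(intensity + 1), methionine-deficient minus control, without further scaling. Symbols of the platform annotation were updated through gene identifiers (34945 probe sets with 1 symbol, 932 with several, 9160 unnamed, 64 array controls). A gene took its brightest probe set. The probe-set spread is a robust SD from neighbouring probe sets of 1 gene, in 5 level bins. The fixed naming rule took all members, up to 4 genes with the largest differences of each list and the 2 nearest genes in intensity (of the marker lists, few are named); 8 lists of related genes and 8 of cell markers were described. Members and lists were chosen with earlier results of these data known. Counting and spread were tested on simulated data. Alternatives were other scalings, pseudocounts, filters, fold sizes and probe set choices. Software was Python 3.11.15, numpy 2.4.6, pandas 2.3.3, statsmodels 0.14.6 and matplotlib 3.10.9.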

Additional observations from a re-analysis of the deposited data

How the results depend on the processing

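None of the 6 members passed the fold size under any alternative run, including 1.5-fold and 3-fold. The 3-fold count could not differ once none passed 2-fold. Without probe sets marked _s, _x or _a, only 3 members had a value. Of the 64 other probe sets with a mean intensity of at least 100000, 0 differed by 2-fold, so the count is not a result about the members. Their log2 differences moved by less than 0.18, the probe-set spread of the brightest bin, in 39 of 45 recalculations. Many of these could not move, or only barely. No member had a probe set with several symbols, 3 members have a single probe set, and a pseudocount of 16 is small beside their intensities. Zg16, Klk1 and Rnase1 kept their brightest probe set when marked ones were dropped. The count is therefore no measure of robustness. The 6 exceptions came from scaling to the poly-A controls, which gave -0.323 for Gp2, -0.185 for Zg16, -0.194 for Sycn, -0.181 for Dmbt1, -0.193 for Klk1 and -0.299 for Rnase1. This scaling shifts all probe sets alike. It put list medians at -0.207 for digestive enzymes, -0.047 for the RNase A family, -0.079 for secreted lectins and -0.217 for acinar regulators. The other list medians became -0.263 for granule membrane genes, -0.275 for kallikreins, -0.018 for zona pellucida domain genes and -0.282 for scavenger receptor cysteine-rich genes. The share of higher genes among those past 2-fold was 31.0% in place of 58.0%. The RNase A median was 1.02 without a level filter and 0.573 as a mean. Genes past the fold size numbered 791 of 11848. They numbered 4325 of 18193 without a level filter and 90 of 6905 with a filter at the 75th percentile. Of the 11848, 2302 passed at 1.5-fold and 215 at 3-fold. Without probe sets marked _s, _x or _a, Gp2, Sycn and Dmbt1 had no value. All of their probe sets carry _a, a different mark from the _x of the marked Klk1 probe sets. The digestive enzyme median, near 0, was below 0 under 5 alternatives (-0.207 to -0.0072), that of acinar regulators under 4 (-0.217 to -0.0268), and that of granule membrane genes was 0.0036 as a mean. By the mean over probe sets, 3 members were higher and 3 lower. No paired analysis was possible because each group is 1 pool on 1 array, and no array could be left out.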

Other observations

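Protein families that share a domain with a member held single genes with larger differences at low intensity. Of genes with a zona pellucida domain, as in Gp2, 8 passed the filter, with 5 higher, 3 lower and a median log2 difference of 0.20 (-0.018 with scaling to the poly-A controls). The egg coat gene Zp2 had 136 on the control array and 328 on the MD array (log2 difference 1.26, probe-set spread 0.77), and Zp3 had 117 and 200 (log2 difference 0.77). Zp2 and Zp3 passed only through the MD array, since their control intensities lie below the filter, so their direction was partly set by it. Tgfbr3 had a log2 difference of 0.25. Umod had 186 and 151 (log2 difference -0.30), and its other probe set, below the filter, went the other way (0.49). Of scavenger receptor cysteine-rich genes, as Dmbt1, 9 passed with 4 higher, 5 lower and a median of -0.064. The macrophage protein gene Cd5l had 111 and 317 (log2 difference 1.51, probe-set spread 0.77), and likewise passed only through the MD array. The lysyl oxidase-like gene Loxl4 had 272 and 166 (log2 difference -0.705, probe-set spread 0.77), while its other probe set, below the filter, gave 0.92. Loxl3 had a log2 difference of -0.56 and the scavenger receptor gene Msr1 one of 0.515, with its 3 other probe sets all lower and below the filter. The direction of this list's median turned with a filter at the 75th percentile (0.217), when probe sets were averaged (0.022) and as a mean (0.132).

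Of other secreted lectins, 6 passed with 4 higher, 2 lower and a median of 0.139. Reg3b, an antimicrobial lectin that acinar cells make under stress, had 51614 on the control array and 74308 on the MD array (log2 difference 0.526, probe-set spread 0.18), and both of its probe sets were higher. Reg3a had 6370 and 8713 (log2 difference 0.45, probe-set spread 0.18), Reg2 a log2 difference of 0.156 and Reg3g one of 0.122. These readings are single values without a test.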
